A study of Mus musculus with 18 samples.

Results

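Histone demethylase genes related to *Kdm6a* were followed in all 18 RNA-seq libraries of the study: *Kdm6a* and *Kdm6b*, *Kdm4a*, *Kdm4b* and *Kdm4c*, and *Kdm5a* and *Kdm5b*. They are 7 of the 24346 gene symbols in the expression tables and were chosen by symbol. The question was whether a related demethylase changed where *Kdm6a* was deleted. KDM6A and KDM6B, Jumonji enzymes, take methyl groups off lysine 27 of histone H3, a mark that Polycomb repressive complex 2 (PRC2) writes and that accompanies silent genes. KDM6A is a partner of the KMT2C and KMT2D methyltransferases, its gene escapes X inactivation, and it has roles outside of demethylation. KDM4 enzymes act on lysines 9 and 36 of histone H3, and KDM5 enzymes remove methyl groups from lysine 4.

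Libraries came from a pair of female mouse embryonic stem (ES) cell lines, both hybrids with *Mus castaneus* (*cast*), left to differentiate without direction. *Tsix*-stop cells, hybrids of strain-129 and *cast*, carry a transcriptional stop in *Tsix*, in wt and KO alike, which fixes silencing on the strain-129 X chromosome. The strain-129 allele is called *musculus* below. *Tsix*-stop cells were sampled at D0 (ES cells) and D15 with 2 wt, 2 *Kdm6a* KO and 1 CRISPR control library (a clone taken through CRISPR/Cas9 treatment and found unedited) a day. E8 cells (BL6 × *cast*) were sampled at D7 and D15 with 2 wt and 2 KO libraries a day. Both KO types are described as homozygous: in *Tsix*-stop cells exons 2 to 4 were cut in 2 clones, whose libraries the labels do not tell apart, and in E8 cells the promoter region was removed in 1 clone. By the methods the *Tsix*-stop wt libraries are biological replicates and the KO libraries the 2 clones, so the KO spread there is between clones. For E8 neither labels nor methods say that libraries of a group came from separate cultures, so p-values measure the spread between these libraries, which may be technical. The CRISPR control libraries were deposited under names that call them KO. Their labels are followed here.

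*Kdm6a* lies on the plus strand at chrX:18162575-18279936 (GRCm38, GENCODE vM21). Its coding transcript Kdm6a-202 has 29 exons and 5935 bases, and exons 2 to 4 hold 223 of them, or 3.76%. From the start of exon 2 to the end of exon 4 the gene spans 45402 bases. Guides were placed in exons 2 and 4, so exon 3 (chrX:18199158-18199266, 109 coding bases) lies wholly inside the deletion, and it is shown because RNA of the KO allele should lack it. Its length leaves 1 base after division by 3. The reading frame of RNA from the KO allele also depends on what is left of exons 2 and 4, and was not examined.
Kdm6a exon 3: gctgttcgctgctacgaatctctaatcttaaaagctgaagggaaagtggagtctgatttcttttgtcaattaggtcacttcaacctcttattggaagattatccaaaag
The other deletion took the promoter region. Its ends are not given in the sources used here, so which bases it removed cannot be told. The 250 bases before the RefSeq start (GRCm38.p6, chrX:18162325-18162574, plus strand) are shown as promoter sequence, with CG dinucleotides in capitals. These bases hold 15 CG dinucleotides against a median of 6 over 32851 promoter entries, and 27.3% of entries hold as many or more. Of the 7 genes 4 have an entry.
Kdm6a promoter: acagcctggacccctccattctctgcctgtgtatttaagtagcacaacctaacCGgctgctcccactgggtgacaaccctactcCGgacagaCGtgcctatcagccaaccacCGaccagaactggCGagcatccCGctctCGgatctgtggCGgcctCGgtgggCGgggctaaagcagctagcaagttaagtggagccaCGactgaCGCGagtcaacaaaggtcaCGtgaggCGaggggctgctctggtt

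All 8 pluripotency markers (*Pou5f1*, *Nanog*, *Sox2* and others) were above 1 TPM in every group, at D15 too. Levels are in TPM (transcript share scaled for gene length), computed here from counts in *Tsix*-stop cells and deposited by the authors in E8 cells, and the lines were not normalized together. In E8 wt the pluripotency markers summed to 13000 to 13100 TPM at D7 and 16600 to 17400 TPM at D15. *Tsix*-stop wt had 13300 to 13800 TPM at D0 and 8630 to 9230 TPM at D15. E8 has no D0 library here, so how far E8 wt cells had differentiated was not tested. *Tsix*-stop libraries held 51091152 to 68796179 counts, and the depth of the E8 libraries is unknown. A gene was called changed at an FDR of at most 0.1, by edgeR on *Tsix*-stop counts and by limma on log2(TPM + 1) in E8. In bulk RNA, fewer cells of a type and less RNA per cell cannot be told apart.

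Some libraries stood apart in ways that reach beyond *Kdm6a*. In the E8 KO libraries nearly all X-linked RNA came from BL6: over 325 X-linked genes the median BL6 share was 99.9% to 100%, against 52.1% to 52.9% in E8 wt. Between 73.5% and 75.7% of these genes were over 95% BL6 in the KO libraries, and 4.62% to 5.23% in wt. X-linked genes were also lower in E8 KO: the median of their log2 fold changes was −0.64 at D7 and −0.55 at D15, whereas genes of chromosome 1 had medians of 0.26 and 0.45. Over all genes tested the medians were 0.10 and 0.09. Because all E8 KO libraries share this, it cannot be told apart from the deletion of *Kdm6a*. In *Tsix*-stop KO the median *musculus* share of chromosome 6 was 56.9% to 65.2%, against 48.1% to 53.7% in wt. For chromosome 11 it was 45.4% and 45.7% in wt at D15, against 51.6% and 52.2% in wt at D0.

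**Figure D1:**
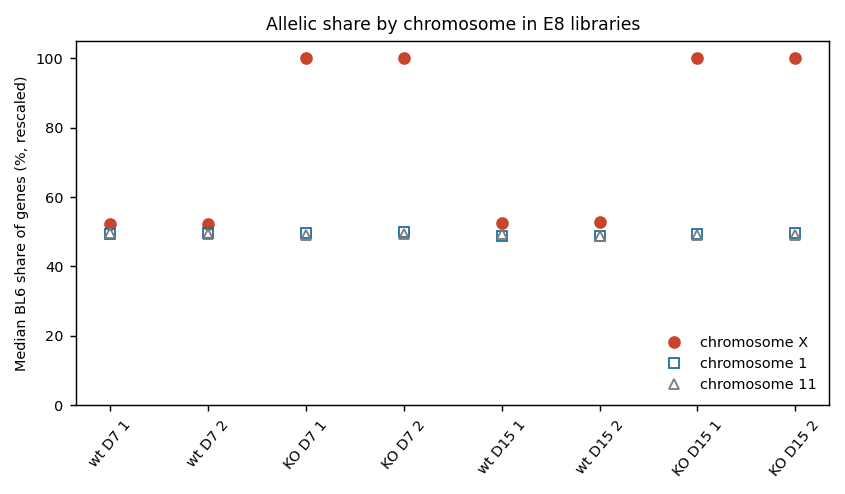
Median BL6 share of the genes of chromosomes X, 1 and 11 (y axis, percent, each library rescaled so that the median autosomal gene has equal shares) in each E8 library (x axis). Chromosome X lies between 52.1% and 52.9% in wt and at 99.9% to 100% in KO, while chromosomes 1 and 11 lie near 50% in every library.

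*Kdm6a* RNA was almost absent from E8 KO cells but not from *Tsix*-stop KO cells. In E8 wt its level was 46.7 and 47.2 TPM at D7 and 47.8 and 47.5 TPM at D15. In E8 KO it was 0.00969 and 0.0319 TPM at D7 and 0.0199 and 0.00578 TPM at D15. No E8 KO library came near a wt library, and wt did not differ between days (log2 difference 0.02, FDR 0.73 by limma). On the log2(TPM + 1) scale the difference of KO from wt was −5.55 at D7 (FDR 4.5e-10 by limma) and −5.59 at D15 (FDR 7.8e-10 by limma), and with a pseudocount of 0.1 it was −8.61 and −8.73, so the size depends on the pseudocount. *Cast* reads gave 0 TPM in all 4 E8 KO libraries and BL6 reads gave 0 in 3 of them and 0.0169 TPM in the last. In E8 wt the BL6 share of *Kdm6a*, after rescaling, was 56.0% to 57.8%.

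At D0 *Kdm6a* of *Tsix*-stop cells had 54.2 and 85.7 TPM in wt and 55.6 and 21.2 TPM in KO. At D15 it had 64.4 and 49.0 TPM in wt and 41.7 and 12.8 TPM in KO. KO replicate 1 lay at or near the wt range on both days, KO replicate 2 lay well under it, and the CRISPR control had 53.8 and 43.6 TPM. On the log2 scale KO differed from wt by −0.97 ± 0.56 (standard error) at D0 and by −1.03 ± 0.57 at D15, and edgeR called neither (FDR 0.30 and 0.19). Without KO replicate 1 of D15 it was −2.14 at D15 and was called (FDR 0.021 by edgeR), and without the other KO replicate it was −0.38. Since all but 3.76% of the transcript lies outside of the deleted exons, the gene's count does not test the labels. The paper reports that PCR and Sanger sequencing verified the deletion in both clones. It also reports that *Kdm6a* RNA remained in them while western blots gave no sign of KDM6A protein.

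Reads with SNPs showed how the alleles of *Kdm6a* differed between these libraries. Its *musculus* share at D0 was 57.4% and 55.1% in wt, 43.5% in KO replicate 1 (95% Wilson interval 39.5 to 47.5%) and 71.5% in KO replicate 2 (66.1 to 76.4%). At D15 it was 39.6% and 45.2% in wt, 37.5% (33.0 to 42.2%) and 56.7% (47.1 to 65.8%) in KO, the last from 59 reads of *musculus* and 45 of *cast*. KO replicate 2 held a higher *musculus* share than wt and the other KO library on each day. In wt the *Kdm6a* share stood above the median of 430 X-linked genes, which was 48.8% and 49.9% at D0 and 30% and 32% at D15. In the CRISPR control it was 64.2% at D0 and 68.8% at D15 while the X-linked median went from 50.8% to 33.3%. Intervals cover counting error only.
In *musculus* reads *Kdm6a* was lower in KO, by a log2 fold change of −1.20 at D0 (FDR 0.058 by edgeR) and −0.92 at D15 (FDR 0.077 by edgeR). With 1 library left out, the D0 value lay between −1.44 and −0.91 and was called in 2 of 8 fits. At D15 it lay between −1.76 (without KO replicate 1) and −0.40 (without KO replicate 2) and was called in 5 of 8 fits. On *cast* reads the log2 fold change was −0.99 at D0 and −0.90 at D15, with FDR 0.38 and 0.34 by edgeR. Without KO replicate 1 of the day these became −2.39 and −2.63, both called (FDR 0.074 and 0.020 by edgeR). *Cast* reads numbered 344 and 478 in wt and 333 and 82 in KO at D0, so KO replicate 1 lay near a wt library and KO replicate 2 far under both.

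**Figure D2:**
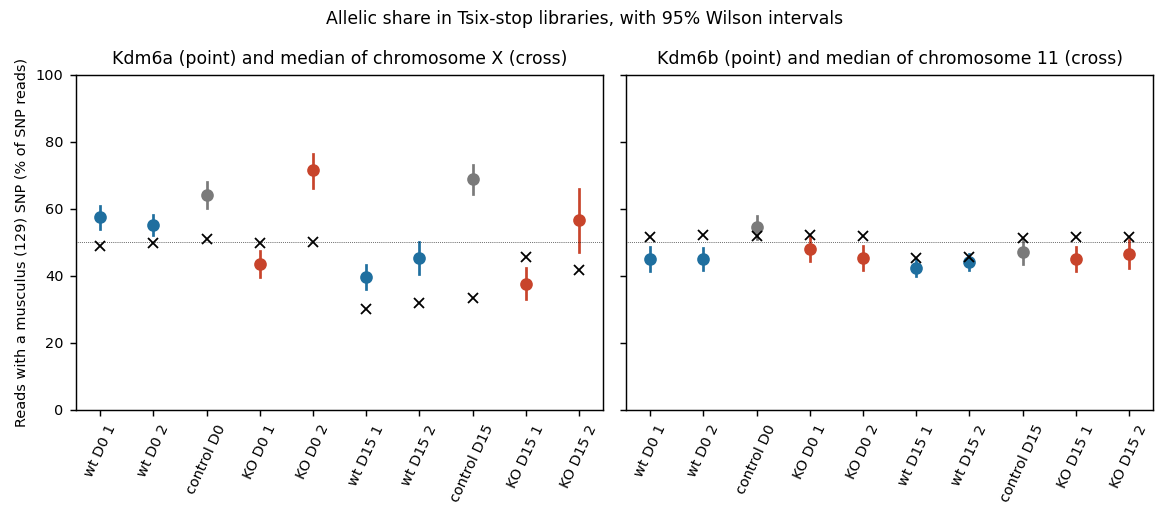
Share of SNP reads from the *musculus* allele (y axis, percent) in each *Tsix*-stop library (x axis) for *Kdm6a*, left, and *Kdm6b*, right; points are the gene with its 95% Wilson interval and crosses the median gene of chromosome X or 11. *Kdm6a* in KO replicate 2 reaches 71.5% at D0 and 56.7% at D15, and *Kdm6b* stays between 42.2% and 54.4%.

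*Kdm6b*, the other lysine 27 demethylase gene here, on the minus strand at chr11:69398508-69413675, moved in opposite directions in the lines. In *Tsix*-stop cells at D0 it had 46.9 and 55.0 TPM in wt, 47.8 and 46.5 TPM in KO and 45.4 TPM in the CRISPR control. At D15 it had 101 and 103 TPM in wt but 50.3 and 40.1 TPM in KO, and the CRISPR control had 59.3 TPM. Wt rose between the days (log2 fold change 0.82, standard error 0.14, FDR 0.00071 by edgeR), while KO gave −0.12 (FDR 0.47). At D15 KO lay under wt by a log2 fold change of −1.16 (standard error 0.14, 95% interval −1.47 to −0.85, FDR 0.00079 by edgeR), and at D0 by −0.22 (FDR 0.32). The KO difference itself changed with the day, by −0.94 (standard error 0.19, FDR 0.012 by edgeR). Leaving out any 1 library kept the D15 value between −1.35 and −0.96 with FDR at most 0.013 by edgeR.
The CRISPR control sat near the KO libraries. With it in place of wt, an alternative chosen after the data were seen and resting on 1 library a day that is assumed to vary like the others, the log2 fold change of *Kdm6b* at D15 was −0.34 and was not called (FDR 0.23 by edgeR). With it added to wt the D15 difference was −0.93 and stayed called (FDR 0.043 by edgeR). The change of the KO difference with day was then −0.79 and was not called (FDR 0.21 by edgeR). Some marker lists of differentiated cells also differed between wt and both KO and control, and others did not. The summed level of 8 fibroblast markers (*Col1a1*, *Col3a1* and others) at D15 was 2640 to 2980 TPM in wt, 208 to 262 TPM in KO and 108 TPM in the CRISPR control. For 7 visceral endoderm markers (*Afp*, *Ttr* and others) it was 833 to 958 TPM, 29.5 to 60.8 TPM and 31.6 TPM, and pluripotency markers summed to 8630 to 9230 TPM in wt, 10900 to 13700 TPM in KO and 7760 TPM in the control. For 7 cardiac markers the sum reached 163 TPM in wt, with 33.3 to 45.1 TPM in KO and 28.9 TPM in the control. In the same order the sums were, for neural markers, 58.1 to 59.6 TPM, 111 to 136 TPM and 59 TPM, and, for endothelium and blood, 127 to 133 TPM, 115 to 144 TPM and 82.3 TPM. The part of these cells in the level of *Kdm6b* was not tested.
Both alleles of *Kdm6b* were lower in KO than in wt at D15, with log2 fold changes of −1.10 on *musculus* reads (FDR 0.0026 by edgeR) and −1.24 on *cast* reads (FDR 0.00071 by edgeR). Its *musculus* share was 42.2% and 44.1% in wt and 44.9% and 46.5% in KO. The CRISPR control of D15 held 373 *musculus* and 419 *cast* reads of *Kdm6b*. KO replicate 1 held 330 and 405, KO replicate 2 held 243 and 280, and wt held 686 and 939 in replicate 1 and 656 and 832 in replicate 2. Genes of chromosome 11 as a whole had a median log2 fold change of −0.19 at D15, and their median *musculus* share was 45.4% and 45.7% in wt and 51.6% in both KO libraries. Exons of *Kdm6b* overlap those of the antisense gene *Kdm6bos*, and the strand setting of the counting is not given in the sources used here, so its values carry that uncertainty.

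**Figure D3:**
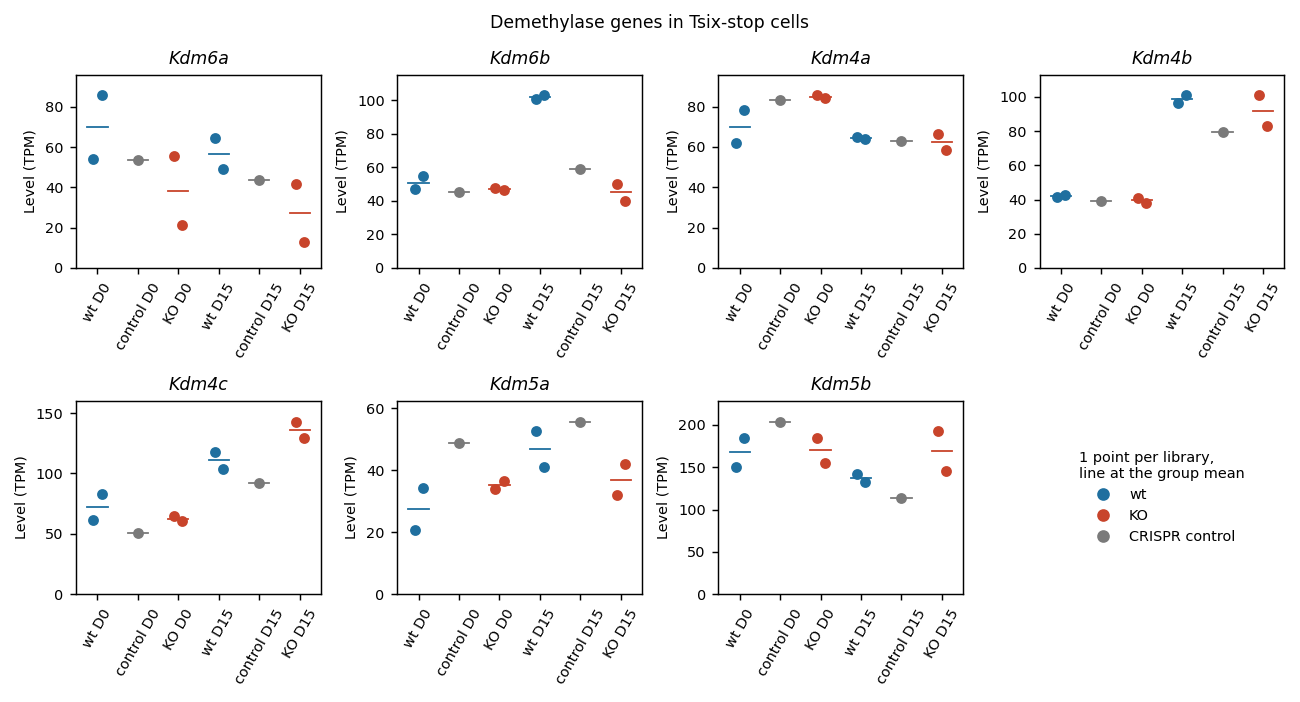
Level (y axis, TPM from 0, computed from counts and exon length) of each gene in wt, CRISPR control and KO libraries of *Tsix*-stop cells at D0 and D15 (x axis); 1 point is 1 library and lines mark group means. *Kdm6b* at D15 is at 101 and 103 TPM in wt and 40.1 to 59.3 TPM in KO and control, and *Kdm6a* spreads from 12.8 to 85.7 TPM.

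In E8 cells *Kdm6b* had 19.7 and 17.9 TPM in wt and 34.4 and 34.3 TPM in KO at D7. At D15 it had 21.0 and 23.1 TPM in wt and 30.2 and 31.0 TPM in KO. Each KO library was above each wt library on both days. The log2 difference was 0.84 at D7 (standard error 0.06, 95% interval 0.70 to 0.97, FDR 5.9e-06 by limma) and 0.46 at D15 (standard error 0.06, FDR 0.00025 by limma), and it shrank by 0.38 between the days (FDR 0.0057 by limma). A rescaling of the libraries to the same median, which lowered every gene by 0.22 at D7 and 0.16 at D15, left 0.62 and 0.29, both called. At D15 the difference of KO from wt was thus −1.16 in *Tsix*-stop cells and 0.46 in E8 cells, on scales that were not normalized together, and the difference between the lines was not tested. Markers of visceral endoderm summed to 1310 TPM in E8 KO and 17.4 to 18.0 TPM in E8 wt at D7, and to 305 to 307 TPM and 14.8 to 15.0 TPM at D15. Pluripotency markers summed to 4430 to 4570 TPM in KO and 13000 to 13100 TPM in wt at D7, and to 7710 to 7920 TPM and 16600 to 17400 TPM at D15. Their part in the levels below was not tested either.

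**Figure D4:**
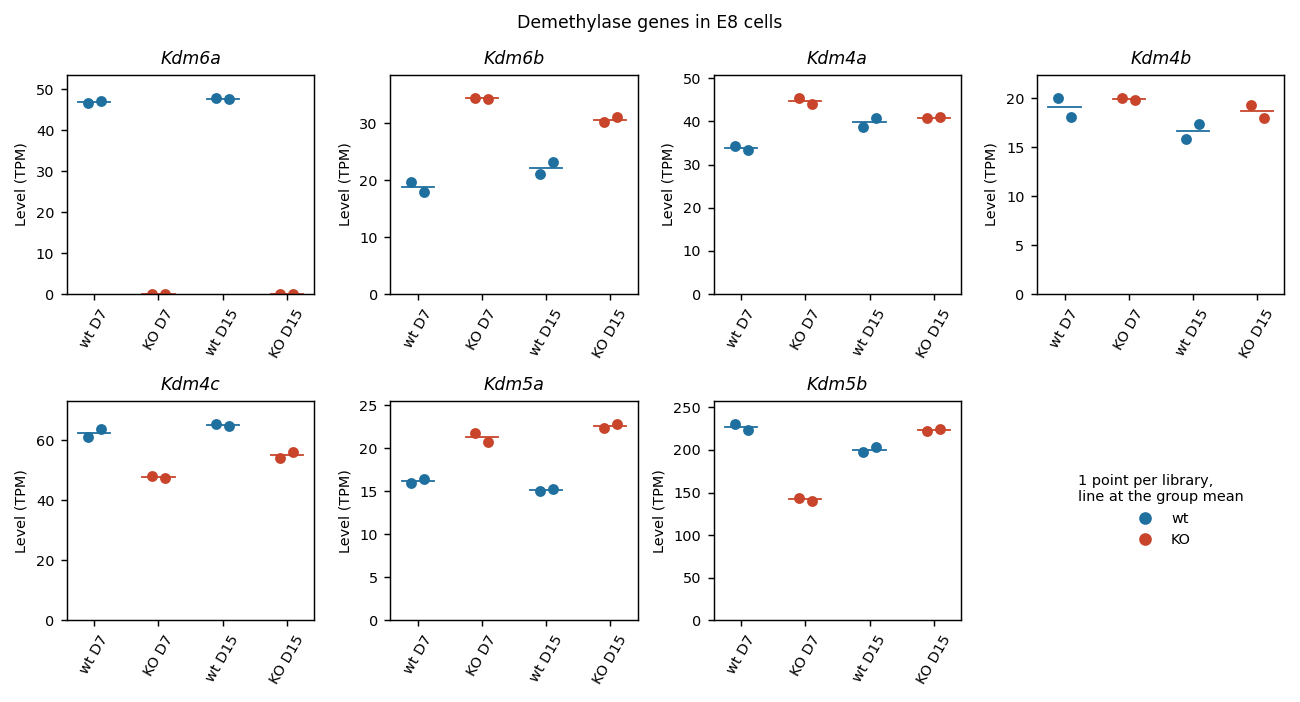
Level (y axis, TPM from 0, as deposited) of each gene in wt and KO libraries of E8 cells at D7 and D15 (x axis); 1 point is 1 library and lines mark group means. *Kdm6a* lies near 0 TPM in all 4 KO libraries, *Kdm6b* and *Kdm5a* are higher in KO on both days, *Kdm4c* is lower, and *Kdm5b* is lower at D7.

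Of the 7 genes none was called between KO and wt in *Tsix*-stop cells at D0, by edgeR or by DESeq2, and none had an unadjusted p under 0.05. Of all genes tested 20.3% were called there, and 8.07% with at least a 2-fold change. At D15 *Kdm6b* alone was called, by both tools and past 2-fold, against 44.7% of all genes and 14.8% past 2-fold. The change of the KO difference with day was called for *Kdm6b* and *Kdm4c*, 2 of 7, against 34.1% of all genes. On *musculus* reads 2 of 7 were called at D0 and 4 of 7 at D15, against 12% and 38.5% of the genes tested. On *cast* reads it was 0 of 7 at D0 (1 at an unadjusted p under 0.05 by edgeR) and 3 of 7 at D15, against 16.9% and 38.3%. The 95% interval of the D15 difference ran from −0.31 to 0.26 for *Kdm4a* and from −2.32 to 0.26 for *Kdm6a*, so a 2-fold change lies outside of the first and inside the second.
In E8 cells 6 of 7 were called on each day, against 84.8% of all genes at D7 and 78.3% at D15. With at least a 2-fold change only *Kdm6a* was called on either day, against 17.5% and 10.7% of all genes. The change of the KO difference with day was called for 5 of 7, against 67.2%. Most genes thus passed at this replicate spread.

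**Figure D5:**
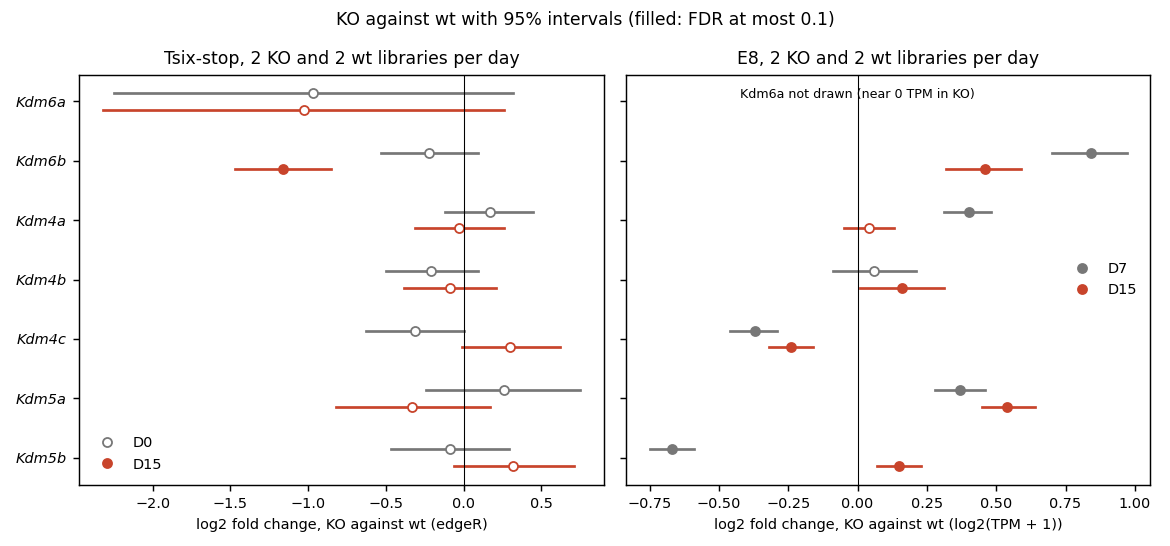
Log2 fold change of KO against wt (x axis) for each gene (y axis) with its 95% interval, in *Tsix*-stop cells by edgeR, left, and in E8 cells on log2(TPM + 1) by limma, right; colours are days and filled points have an FDR of at most 0.1. *Kdm6b* lies at −1.16 in *Tsix*-stop cells and at 0.46 in E8 cells at D15, and the E8 directions of *Kdm4a* and *Kdm5b* at D15 and of *Kdm4b* turn with rescaling. *Kdm6a* is not drawn for E8, where it lies at −5.55 and −5.59.

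*Kdm4c*, a lysine 9 and 36 demethylase gene at chr4:74242497-74405860, also differed in sign between the lines at D15. In E8 cells it fell in KO, from 61.0 and 63.6 TPM to 48.1 and 47.4 TPM at D7 (log2 difference −0.37, FDR 2.8e-05 by limma) and from 65.3 and 64.9 TPM to 54.1 and 56.1 TPM at D15 (−0.24, FDR 0.00051 by limma). The groups did not overlap on either day, and rescaling gave −0.59 and −0.40. At D15 in *Tsix*-stop cells it had 118 and 104 TPM in wt and 143 TPM in one KO library and a mean of 136 ± 10 TPM (SD, n = 2) over both, a log2 fold change of 0.30 that was not called (95% interval −0.01 to 0.62, FDR 0.12 by edgeR). Against the CRISPR control, at 92.4 TPM and 1 library a day, it was 0.60 and called (FDR 0.078 by edgeR), but there the D0 value was 0.26 in place of −0.31 and the change between the days was 0.35 (FDR 0.48 by edgeR). Either allele alone was called at D15, with 0.54 on *musculus* reads (FDR 0.016 by edgeR) and 0.47 on *cast* reads (FDR 0.034 by edgeR). At D0 it had 61.8 and 82.7 TPM in wt and 64.5 and 60.7 TPM in KO, so the groups overlapped (log2 fold change −0.31, FDR 0.18 by edgeR), though *musculus* reads alone gave −0.47 (FDR 0.078 by edgeR), called in 2 of 8 fits without 1 library. At D15 the *musculus* call was kept in 7 of 8 such fits (lost without KO replicate 1, 0.44) and the *cast* call in 6 of 8 (lost without wt replicate 2, 0.40, or KO replicate 1, 0.31), while the count itself was called without KO replicate 2 (0.43, FDR 0.091 by edgeR) or without either wt library of D0 (0.30, FDR 0.069). The KO difference changed by 0.62 between the days (FDR 0.052 by edgeR), a call that was lost in 5 of 8 fits without 1 library, where FDR reached 0.16, and also with the CRISPR control added to wt (0.54, FDR 0.28 by edgeR).
With day *Kdm4c* rose in both genotypes of *Tsix*-stop cells, by 0.44 in wt (FDR 0.020 by edgeR) and by 1.06 in KO (FDR 0.00035 by edgeR).

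*Kdm4a*, of the same family, at chr4:118136957-118180043 on the minus strand, differed in E8 cells at D7. It had 34.3 and 33.3 TPM in wt and 45.4 and 44.1 TPM in KO there, a log2 difference of 0.40 (FDR 3.3e-05 by limma), or 0.18 after rescaling. At D15 it had 38.7 and 40.8 TPM in wt and 40.8 and 40.9 TPM in KO. That difference was 0.04 (FDR 0.35 by limma) and turned to −0.12, called, after rescaling. The *Tsix*-stop libraries had 61.8 and 78.2 TPM in wt, 85.6 and 84.0 TPM in KO and 83.4 TPM in the control at D0, with a log2 fold change of 0.17 on scaled counts (95% interval −0.12 to 0.45). At D15 all 5 libraries lay between 58.5 and 66.4 TPM.

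*Kdm4b*, at chr17:56326062-56402870, rose with differentiation in both genotypes of *Tsix*-stop cells. Among *Tsix*-stop libraries it went from 41.7 and 42.8 TPM at D0 to 96.6 and 101 TPM at D15 in wt, and from 41.0 and 38.1 TPM to 101 and 83.1 TPM in KO. The rise was 1.04 in wt (FDR 0.00015 by edgeR) and 1.16 in KO (FDR 0.00015 by edgeR), and the CRISPR control went from 39.4 to 79.5 TPM. Between KO and wt its log2 fold change was −0.21 at D0 (95% interval −0.50 to 0.09) and −0.09 at D15 (−0.38 to 0.21). In E8 cells it lay between 15.8 and 20 TPM in all 8 libraries, and the D15 difference of 0.16 (FDR 0.055 by limma; 0.09 without wt replicate 1 and 0.11 without KO replicate 1, both not called) went to 0.00 after rescaling while that of D7, 0.06, turned to −0.16.

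*Kdm5b*, a lysine 4 demethylase gene at chr1:134560171-134635285, had the highest level of the 7 genes in each group. In E8 cells at D7 it fell from 230 and 223 TPM in wt to 144 and 140 TPM in KO, a log2 difference of −0.67 (standard error 0.03, FDR 9.9e-07 by limma), or −0.89 after rescaling. At D15 it had 197 and 204 TPM in wt and 222 and 224 TPM in KO, a difference of 0.15 (FDR 0.0045 by limma) that went to −0.01 after rescaling. The KO difference changed by 0.82 between the days (FDR 1.2e-05 by limma), with E8 KO rising by 0.65 from D7 to D15. Genes of chromosome 1 as a whole were higher in E8 KO on both days, by the medians given above. *Kdm5b* of *Tsix*-stop cells had 150 and 185 TPM in wt and 185 and 155 TPM in KO at D0, and 142 and 132 TPM in wt and 193 and 146 TPM in KO at D15. The D15 difference of 0.32 was not called (FDR 0.16 by edgeR), but *musculus* reads gave 0.50 (FDR 0.045 by edgeR) and *cast* reads 0.72 (FDR 0.0090 by edgeR). Without KO replicate 2 the count was called too (0.56, FDR 0.035 by edgeR), and the *musculus* call was lost without KO replicate 1 (0.27, FDR 0.34 by edgeR) or either wt library of D15, and with library sizes from the SNP reads of the allele (0.35, FDR 0.15 by edgeR).

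*Kdm5a*, the other lysine 4 demethylase gene, at chr6:120364124-120444574, was higher in E8 KO on both days. It had 16.0 and 16.5 TPM in wt and 21.8 and 20.8 TPM in KO at D7, and 15.1 and 15.3 TPM in wt and 22.4 and 22.8 TPM in KO at D15. The log2 difference was 0.37 at D7 (FDR 5.8e-05 by limma) and 0.54 at D15 (FDR 1.1e-05 by limma), and rescaling left 0.15 and 0.38, both called. Among *Tsix*-stop libraries the groups overlapped or nearly did, with 20.6 and 34.2 TPM in wt and 33.9 and 36.5 TPM in KO at D0, and 52.8 and 40.9 TPM in wt and 32.0 and 41.9 TPM in KO at D15. Neither difference was called (0.26, FDR 0.48, and −0.33, FDR 0.27, by edgeR), though without wt replicate 2 that of D0 was (0.62, FDR 0.099 by edgeR). The CRISPR control had 48.9 TPM at D0 and 55.7 TPM at D15, with a *musculus* share of 65.7% (63.4 to 67.8%) and 62.7% (60.4 to 65%), where wt lay between 46.6% and 49.8%. KO replicate 2 had 54.7% (51.9 to 57.4%) at D0 and 56.5% (53.7 to 59.2%) at D15, and KO replicate 1 had 49.5% and 49.8%. The median share of chromosome 6, which carries *Kdm5a*, was 63.5% and 65.2% in KO replicate 2, 59.4% and 56.9% in KO replicate 1, and 51.7% and 52.2% in the control. Exons of *Kdm5a* overlap *Ccdc77* on the other strand, so reads of these genes may not be told apart.

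The order of the 7 levels was not fixed. In *Tsix*-stop wt at D0 *Kdm5b* was followed by *Kdm4c*, *Kdm4a*, *Kdm6a* and *Kdm6b*, whose libraries overlapped from one to the next, then *Kdm4b* and *Kdm5a*. At D15 *Kdm6b* and *Kdm4b* came after *Kdm4c* in wt, at means of 102 TPM and 98.6 TPM, and in KO *Kdm6b* lay under *Kdm4a*, at 45.2 TPM, with libraries that overlapped those of *Kdm5a*. In E8 wt *Kdm6a* lay under *Kdm4c* and above *Kdm4a* on both days, with no overlap. In E8 KO *Kdm4a* and *Kdm6b* followed *Kdm4c*, and *Kdm6a* was last.

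With day alone, 6 of the 7 genes were called in *Tsix*-stop wt and 3 of 7 in *Tsix*-stop KO, against 74.9% and 65% of all genes. *Kdm6a* was the one not called in wt. The wt calls of *Kdm4a*, *Kdm4c*, *Kdm5a* and *Kdm5b* were each lost in at least 1 fit without a wt library, in which *Kdm4a* went from −0.31 to −0.18 and *Kdm5a* from 0.59 to 0.30. In KO *Kdm6a* had −0.55, and −1.66 without KO replicate 1 of D15. That fit set KO replicate 2 of D15 against both KO libraries of D0. KO replicate 2 was the lower on each day, with 21.2 TPM against 55.6 TPM at D0 and 12.8 TPM against 41.7 TPM at D15. The value of −1.66 thus mixes the difference between the KO libraries with that of day. In E8 cells 5 of 7 were called in wt and 5 of 7 in KO, against 58.6% and 75.9%. Those of *Kdm5a*, at −0.09 in wt and 0.08 in KO, were lost in most fits without 1 library, as were those of *Kdm4b* in wt (−0.19) and *Kdm6b* in KO (−0.16) in some. All day differences in E8 wt were small, the largest being 0.23 for *Kdm4a* (FDR 0.0025 by limma) and 0.22 for *Kdm6b* (FDR 0.019 by limma), whereas in E8 KO *Kdm5b* rose by 0.65 and *Kdm4c* by 0.20.
Over the 10 *Tsix*-stop libraries *Kdm4b* and *Kdm4c* had a Pearson r of 0.891 between their log2 CPM, *Kdm4a* and *Kdm4b* of −0.872, and *Kdm6a* and *Kdm6b* of 0.482. The genes most like *Kdm6a* were *Ppp2r5e* (r 0.952), *Nemf* (0.930) and *Fam179b* (0.928), and those most like *Kdm6b* were *Mmp15* (0.959), *Fto* (0.955) and *Tshz2* (0.952). Over the 8 E8 libraries the r with *Kdm6b* was 0.897 for *Mmp15*, 0.556 for *Fto* and 0.819 for *Tshz2*. With *Kdm6a* it was −0.706 for *Ppp2r5e*, 0.136 for *Nemf* and −0.986 for *Fam179b*. *Kdm6a* was almost absent from E8 KO and steady in E8 wt, so its r there mostly restates the difference of KO from wt. The libraries share days and genotypes, so these are descriptions.

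Of 15 further histone demethylases 12 were tested. In *Tsix*-stop cells 2 were higher and 1 lower in KO at D0, and 1 was higher and 1 lower at D15. Of all genes 9.11% were higher and 11.2% lower at D0, and 21.2% and 23.5% at D15. *Phf2*, a lysine 9 demethylase gene, had 10.6 and 12.6 TPM in wt and 23.0 and 21.7 TPM in KO at D0 (log2 fold change 0.83, FDR 0.014 by edgeR), but 50 and 45.4 TPM in wt and 15.4 and 21.7 TPM in KO at D15 (−1.35, FDR 0.00085 by edgeR). *Kdm3a* was lower at D0 (−1.21), and *Kdm1b* was 0.40 higher at D15.
In E8 cells 3 of the 12 were higher and 7 lower at D7, and 5 were higher and 3 lower at D15. Of all genes 49.5% were higher and 35.3% lower at D7, and 47.2% and 31% at D15, but after rescaling 41.2% of the calls on each day were higher, against 58.4% and 60.4% as deposited. Rescaled, 3 of the 12 demethylases were higher and 9 lower at D7, and 2 higher and 6 lower at D15. *Phf2* was higher in KO at D7 (1.48, FDR 1.8e-07 by limma) and at D15 (0.65, FDR 2.2e-05 by limma). *Kdm2a*, a lysine 36 demethylase gene, was higher on both days too (0.52 and 0.50). The X-linked *Kdm5c* was lower at D7 (−0.61, FDR 7.5e-06 by limma) and at D15 (−0.73, FDR 4.5e-06 by limma). X-linked genes as a whole were lower too, with medians of −0.64 and −0.55, and 91.8% and 93.1% of them were called. The values of *Phf2*, *Kdm2a* and *Kdm5c* kept their sign and call after rescaling.

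Genes of the KMT2C and KMT2D complex and of the PRC2 core gave no called change of 2-fold. Of all genes 8.07% and 14.8% had one in *Tsix*-stop cells at D0 and D15, and 17.5% and 10.7% in E8 cells at D7 and D15. Lists this short would hold few at such shares, so the lack is not a result about these genes. Called at any size were 20.3% and 44.7% of all genes in *Tsix*-stop cells, and 84.8% and 78.3% in E8 cells. Of 9 genes of the KMT2C and KMT2D complex none reached 2-fold in any comparison. In *Tsix*-stop cells 2 were lower at D0, *Ash2l* (−0.39) and *Dpy30* (−0.34), and at D15 3 were higher, among them *Ash2l* (0.51) and *Dpy30* (0.64), and 1 was lower. In E8 cells 5 were higher and 3 lower at D7, with the lowest p for *Wdr5* (−0.59) and *Ncoa6* (0.71), and 4 were higher and 4 lower at D15, with the lowest p for *Kmt2c* (−0.47) and *Wdr5* (−0.44). After rescaling it was 1 higher and 4 lower at D7, and 0 higher and 5 lower at D15.
Of the 6 PRC2 core genes 2 were lower at D0 in *Tsix*-stop KO, *Ezh2* (−0.65), the catalytic subunit, and *Eed* (−0.39). At D15 *Eed* was higher (0.29) and *Ezh1* lower (−0.51). In E8 cells all 6 were called on each day, against 84.8% and 78.3% of all genes, with 2 higher and 4 lower at D7 and 3 of each at D15. The lowest p was that of *Rbbp7* (0.40) and *Suz12* (−0.42) at D7 and of *Ezh1* (−0.60) and *Eed* (−0.25) at D15. Rescaled, 1 was higher and 4 lower at D7, and 0 higher and 5 lower at D15.
Of 6 other lysine 4 methyltransferase genes none was called in *Tsix*-stop cells on either day by edgeR or DESeq2, and none had an unadjusted p under 0.05. In E8 cells 5 were higher and 1 lower at D7, with the lowest p for *Setd1b* (0.71) and *Cxxc1* (0.50), and 4 were higher at D15, among them *Cxxc1* (0.28) and *Men1* (0.29), the first down to 0.12 and the second to 0.13 after rescaling. Of 10 lysine 9 and 36 methyltransferase genes 8 were tested, with 1 higher at D0 and 1 higher and 1 lower at D15 in *Tsix*-stop cells, and 6 higher and 2 lower at D7 and 7 higher and 1 lower at D15 in E8 (3 and 2, and 4 and 1, rescaled). *Suv39h1*, an X-linked lysine 9 methyltransferase gene, had 33.7 and 34.8 TPM in E8 wt and 151 and 143 TPM in E8 KO at D7 (2.07, FDR 1.3e-08 by limma), and 1.43 at D15. In *Tsix*-stop cells it was 0.48 higher at D0 and 0.59 lower at D15, where *Nsd1* was 0.51 higher. *Setd2* was 0.48 and 0.37 higher in E8 KO at D7 and D15.
Within 500 kb of *Kdm6a* the tables hold *Dusp21* and *4930578C19Rik*, and neither passed the filter on low values.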

How the data were processed

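RNA-seq reads from 18 libraries were mapped by the authors to mm10 (GRCm38) and to a *cast* genome made from it. The submitters' processing notes name Bowtie2 2.4.5 and TopHat2 2.1.1. The counting tool, its annotation and its strand setting are not given in the sources used here.

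For *Tsix*-stop cells the authors deposited estimated counts per gene (7.1% of values are not whole), with columns for all reads and for reads with SNPs of 129 (*musculus* in the text) or *cast*, whose meaning was taken from their names. These expected counts were rounded here. For E8 cells the authors deposited TPM, whole and by allele. The paper gives days for E8 that differ from the labels, and the labels (D7 and D15) were followed. In E8, 537 rows repeated a symbol and were summed. TPM of *Tsix*-stop cells was computed from counts and GENCODE exon length, so ratios of TPM can differ slightly from fold changes of scaled counts. SNP reads per *Tsix*-stop library numbered 9210225 to 12095548.

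Genes with 2.5 CPM or TPM in 2 libraries were tested: 13121 genes with edgeR 4.0.16 (quasi-likelihood, TMM) and 12452 with limma 3.58.1 on log2(TPM + 1), in R 4.3.3. Each line was fitted as 4 groups of wt and KO by day, without the CRISPR control. Alleles were tested on 12299 genes with a mean of 20 SNP reads, scaled by the whole libraries. P-values were adjusted by Benjamini-Hochberg over all genes tested. An exact 2-sided permutation test of 2 against 2 libraries cannot go below 0.333, so none is given. DESeq2 1.42.0, other filters, scalings and pseudocounts, a replicate block and leaving out each library were alternatives. The tests were checked on simulated data. These held independent libraries without differences between clones or cultures, so the check does not cover spread of that kind.

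The genes and lists were chosen with earlier results of these data known. From each list of related genes, up to 2 called genes with the lowest p in each comparison were named. Sequences are from RefSeq (promoter) and GENCODE transcripts (exon).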

Additional observations from a re-analysis of the deposited data

Results flagged for a closer look

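The difference of KO from wt itself changed between the days, by the test of the interaction, for these demethylase genes. That test called 34.1% of all genes in *Tsix*-stop cells and 67.2% in E8 cells. A call alone thus does not set these genes apart. In *Tsix*-stop cells the change from D0 to D15 was −0.94 for *Kdm6b* and 0.62 for *Kdm4c* on the log2 scale (edgeR). With the CRISPR control added to wt neither was called (−0.79, FDR 0.21, and 0.54, FDR 0.28, by edgeR), and *Kdm4c* was called in 3 of 8 fits without 1 library. In E8 cells the change from D7 to D15 was 0.82 for *Kdm5b*, −0.35 for *Kdm4a*, −0.38 for *Kdm6b*, 0.18 for *Kdm5a* and 0.14 for *Kdm4c* (limma), the last called in 5 of 8 fits without 1 library.

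At D15 each KO library lay on one side of wt in *Tsix*-stop cells and on the other side in E8 cells for *Kdm6b* (−1.16 and 0.46) and *Kdm4c* (0.30 and −0.24). The *Tsix*-stop value of *Kdm4c* was not called (FDR 0.12 by edgeR). For *Kdm6b* the CRISPR control of D15, at 59.3 TPM, sat near KO (50.3 and 40.1 TPM). Of all genes 44.7% were called at D15 in *Tsix*-stop cells and 78.3% in E8 cells, and how many lay on opposite sides in the lines was not counted. The difference between the lines was not tested, since their tables were normalized separately.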

How the results depend on the processing

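With 1 library left out, the count of the 7 genes called between KO and wt ran from 0 to 1 (*Tsix*-stop D0), 1 to 3 (*Tsix*-stop D15), 6 to 6 (E8 D7) and 5 to 6 (E8 D15). It ran from 0 to 2 and 2 to 4 on *musculus* reads, and from 0 to 1 and 2 to 3 on *cast* reads, at D0 and D15. For the change of the KO difference with day it ran from 1 to 3 (*Tsix*-stop) and 4 to 5 (E8). For day it ran from 3 to 6 in *Tsix*-stop wt, 3 to 4 in *Tsix*-stop KO, 3 to 5 in E8 wt and 3 to 4 in E8 KO. Of the values of single genes 712 kept their side of the threshold, 58 lost a call and 14 gained one. Values that changed sign without a call in either fit are counted among the 712.

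Under the other alternatives 604 values of single genes kept both, 11 lost and 4 gained a call, and 4 turned. The count in *Tsix*-stop cells at D15 was 3 with no filter on low counts. The change of the KO difference with day in *Tsix*-stop cells was called for 0 genes with the CRISPR control added to wt and for 0 with it in place of wt, the latter chosen after the data were seen. After E8 libraries were rescaled to the same median *Kdm4b* turned to −0.16 at D7 and −0.00 at D15, *Kdm4a* to −0.12 and *Kdm5b* to −0.01 at D15. The cause was not tested.

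Replicate numbers are shared by the groups. The correlation of the deviations of same-numbered libraries from their group means was 0.212 between KO at D0 and D15 of *Tsix*-stop cells, whose KO libraries are 2 clones by the methods, and −0.196 to 0.0911 between the other groups, so the numbers were not taken to pair wt with KO. With the replicate number as a block, 2 genes were called in *Tsix*-stop cells at D15, *Kdm6a* (−1.19, FDR 0.091 by edgeR) beside *Kdm6b*, and 1 on *musculus* reads at D0.

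Precision is limited by 2 libraries a group, by few SNP reads (59 and 45 for *Kdm6a* in 1 KO library) and by the unknown depth of the E8 libraries.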
